A study of Mus musculus with 12 samples.

Results

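Mitochondrial ribosomal protein genes were followed in NIH-3T3 cells, a mouse line of embryonic fibroblasts that grow without limit in culture. Members were the genes of the deposited count table whose mouse symbol begins with Mrpl or Mrps followed by a number and whose mean was at least 50 counts over the 12 libraries. This gave 78 of 16300 genes. No symbol of that form fell under the minimum, since the lowest member, Mrps28, had a mean of 166.8 counts, and all 78 were among the 11763 genes tested.

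There were 4 groups of 3 libraries, each from cells treated for 24 h. TS cells received recombinant STC-1 at 100 ng/mL together with TGF-β1 at 10 ng/mL, TGFb1 cells received TGF-β1 alone at 10 ng/mL, STC1 cells received STC-1 alone at 100 ng/mL, and Con cells received PBS. STC-1, stanniocalcin-1, is a secreted glycoprotein, and TGF-β1 is the cytokine commonly used to activate fibroblasts. All libraries came from 1 cell line, and the series text calls the 3 samples of a group biological replicates.

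The mitochondrial ribosome, or mitoribosome, translates the few messages encoded by mitochondrial DNA, all of them for subunits of the respiratory chain and ATP synthase. Its RNAs are made inside the organelle, but every one of its proteins is encoded in the nucleus, translated in the cytosol and imported. Many of these proteins have counterparts in the bacterial ribosome, and others were gained in the mitochondrial lineage and have none. In most mouse symbols Mrpl stands for the large subunit, which joins the amino acids, and Mrps for the small subunit, which reads the message. The exceptions here were Mrps18a and Mrps30, whose proteins sit in the large subunit, and Mrps36, whose protein belongs to the 2-oxoglutarate dehydrogenase complex. The 78 genes were therefore counted as 51 of the large subunit, 26 of the small subunit and Mrps36. Of those in the mitoribosome, 46 were classed as encoding a protein with a bacterial counterpart and 31 a mitochondria-specific one. Mrps18a and Mrps18b were put in the mitochondria-specific class, although their proteins are related to that of Mrps18c, which was classed as having a bacterial counterpart. The classes are therefore not strictly those of ancestry.

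Library totals ran between 16867563 and 18521810 counts, and the median biological coefficient of variation over the tested genes was 2.24%. The fibroblast label fitted the markers: the 10 fibroblast genes summed to 17810 to 18950 CPM (counts scaled to a common library size, with TMM factors) in TS, 17980 to 18480 in TGFb1, 18380 to 19210 in STC1 and 19230 to 20470 in Con. These markers moved with treatment. Against Con, at an edgeR adjusted p under 0.05, 5 of the 10 fell in TS and in TGFb1: Col1a2, Col3a1, Pdgfra, Pdgfrb and Fn1. Dcn rose in TS, and none of the 10 passed in STC1. Of all tested genes, 2.88% fell and 3.18% rose in TS, and 2.08% fell and 1.90% rose in TGFb1. The 6 macrophage genes summed to at most 10.32 CPM in a library, the 4 epithelial genes in the table to at most 1.246 and the 5 endothelial genes to at most 0.4527. The 5 adipocyte genes in the table summed to at most 35.94 CPM. Of these, Lpl had a mean of 29.4 CPM and Fabp4 of 5.17 CPM, with Adipoq, Plin1 and Pparg each below 0.01 CPM. The part of the marker changes in the results below was not tested.

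The mean levels of the genes ran from 9.559 to 96.45 CPM. Averaged over the 12 libraries, the most abundant were Mrpl18 at 96.45 CPM, Mrpl30 at 85.60, Mrps25 at 82.25 and Mrpl17 at 78.75, and the least abundant were Mrps28 at 9.559, Mrpl55 at 10.09, Mrps12 at 13.16 and Mrpl34 at 13.17. Mrps12 encodes the protein of the decoding centre whose bacterial counterpart is the site of streptomycin resistance. The median was 35.9 CPM for the large subunit and 40.0 for the small. Divided by transcript length, so that genes can be compared, the median level was 27.8 CPM per kb over all 78, 26.9 for the large subunit and 32.3 for the small. On that scale Mrpl33 was highest at 107.2 CPM per kb, before Mrpl30 at 88.34, Mrps21 at 80.76 and Mrpl18 at 79.12, and Mrpl57 was lowest at 5.012. The order depends on the transcript chosen for each gene: with the median length of a gene's protein-coding transcripts in place of the longest RefSeq-matched one, the rank correlation of the levels was 0.864 over the 78 genes, and 5 genes moved by more than 2 times.

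Summed over the 78 genes, every treated library lay above every Con library. The sums were 3301.1, 3252.1 and 3273.3 CPM in TS, 3256.9, 3240.1 and 3262.3 in TGFb1, 3222.4, 3224.7 and 3201.0 in STC1, and 3125.7, 3145.0 and 3170.7 in Con. The mean was 3276 ± 24.6 CPM in TS, 3253 ± 11.6 in TGFb1, 3216 ± 13.1 in STC1 and 3147 ± 22.6 in Con (SD, n = 3 each). TS was thus 4.08% above Con, TGFb1 3.37% and STC1 2.19%. TS was 1.85% above STC1 without overlap and 0.689% above TGFb1 with overlap. The 3 comparisons with Con share its libraries, so a low Con library lifts all of them at once. Without TMM scaling the treated libraries still lay above Con, at 3199.6 to 3291.4 CPM in the treated cells against 3141.8 to 3179.0 in Con.

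**Figure D1:**
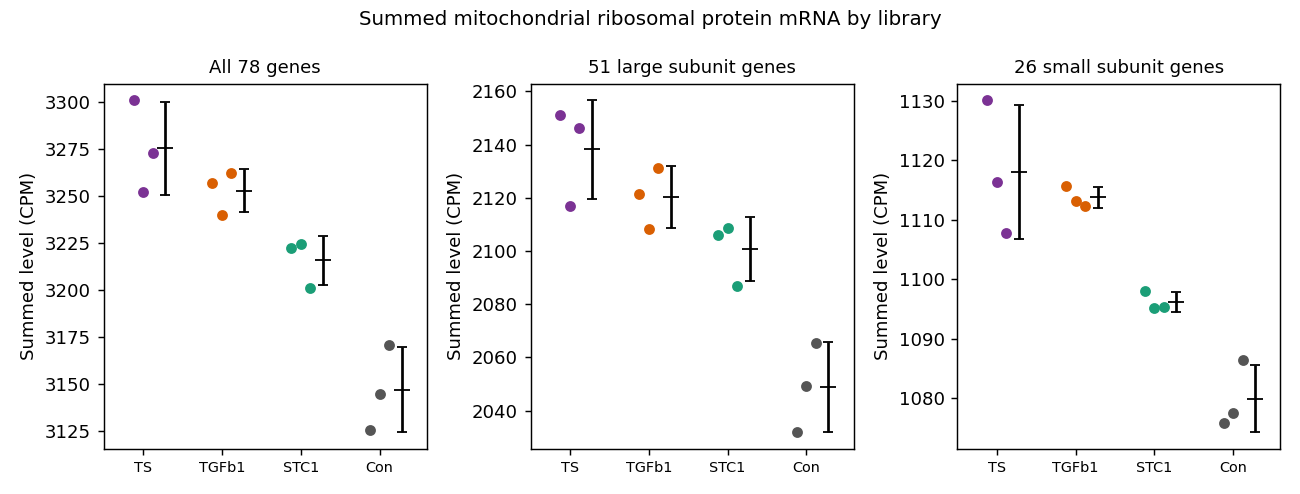
Summed level (CPM) of all 78 genes, of the 51 large subunit genes and of the 26 small subunit genes in each library (points), with the mean and SD of the 3 libraries of a group (bars); the axes do not start at 0. The 3 Con libraries lie lowest in each panel, at 3125.7 to 3170.7 CPM over all 78 genes, and TS and TGFb1 overlap.

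Both subunits had the same order of group means, and TS overlapped TGFb1 in both. In the large subunit TGFb1 also overlapped STC1. The large subunit genes summed to 2138 ± 18.5 CPM in TS, 2120 ± 11.5 in TGFb1, 2101 ± 12 in STC1 and 2049 ± 16.8 in Con. The small subunit genes summed to 1118 ± 11.3 CPM in TS, 1114 ± 1.72 in TGFb1, 1096 ± 1.65 in STC1 and 1080 ± 5.66 in Con (SD, n = 3 each). Against Con the large subunit was 4.36% higher in TS, 3.49% in TGFb1 and 2.52% in STC1, and the small subunit 3.53% in TS, 3.13% in TGFb1 and 1.51% in STC1. The ratio of large to small subunit message hardly moved: it lay between 1.90 and 1.94 in TS, 1.89 and 1.92 in TGFb1, 1.91 and 1.93 in STC1, and 1.89 and 1.90 in Con.

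Split by these classes, the 46 genes with a bacterial counterpart summed to 2050 ± 16.7 CPM in TS, 2033 ± 12.6 in TGFb1, 2008 ± 16.6 in STC1 and 1950 ± 18.0 in Con. That put TS 5.11%, TGFb1 4.26% and STC1 2.95% above Con, with no overlap. The 31 mitochondria-specific genes summed to 1206 ± 7.59 CPM in TS, 1201 ± 2.81 in TGFb1, 1189 ± 4.02 in STC1 and 1179 ± 6.85 in Con (SD, n = 3 each). Their differences from Con were smaller, 2.35% in TS, 1.89% in TGFb1 and 0.882% in STC1, and STC1 overlapped Con. Whether these classes differ from each other was not tested.

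Gene by gene the typical difference was about as large as its standard error. The median log2 fold change of the 78 genes was 0.052 in TS against Con, 0.050 in TGFb1 against Con and 0.033 in STC1 against Con, with medians of -0.00021, -0.0022 and -0.0018 over all tested genes. The standard error of a single member had a median of 0.053 in TS and in TGFb1 against Con. A fold change above 0 was found for 68 of the 78 genes in TS, 63 in TGFb1 and 55 in STC1, beside 49.9%, 48.9% and 49.1% of all tested genes. There were 48 genes above 0 in all 3 comparisons with Con and 5 below 0 in all 3, namely Mrpl9, Mrpl57, Mrps6, Mrps18a and Mrps28. None of these 5 passed the test in any comparison with Con.

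**Figure D2:**
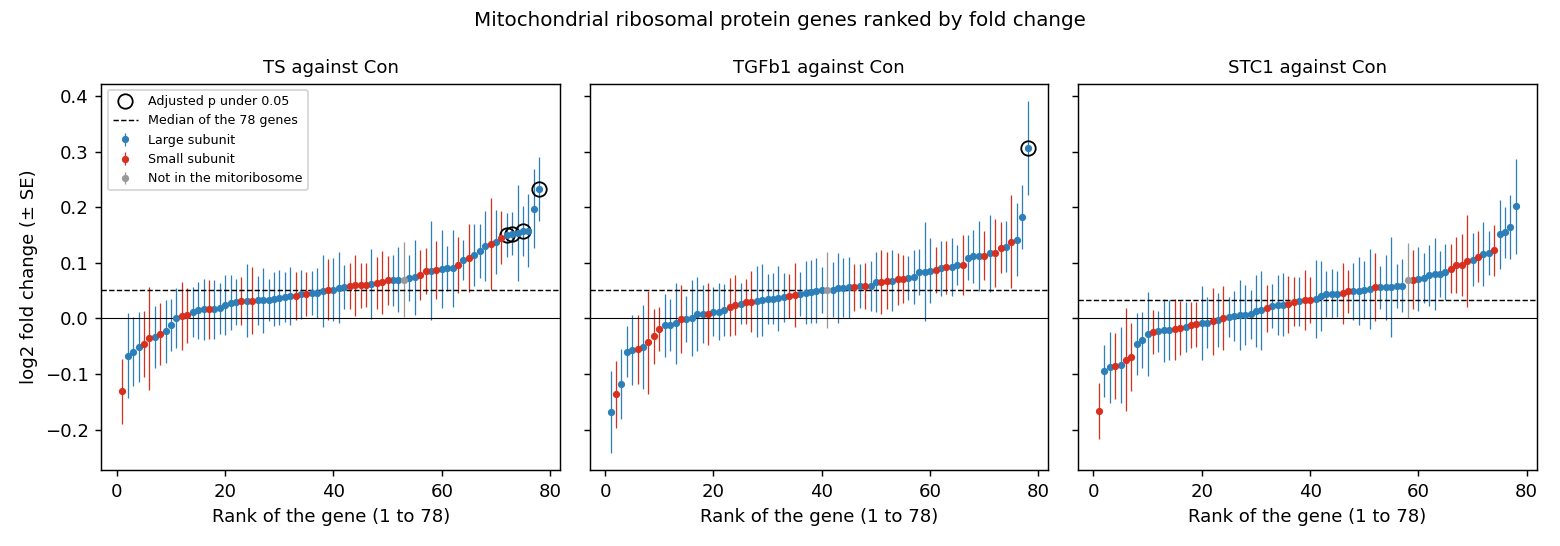
The log2 fold change (± SE) of each of the 78 genes against Con in TS, TGFb1 and STC1, ranked within each panel; colour gives the subunit, the broken line the median of the 78 genes, and a ring an adjusted p under 0.05. Most points lie above 0 but within a few hundredths of it, and rings mark 4 genes in TS, 1 in TGFb1 and 0 in STC1.

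TS against Con asked what both proteins together did to these genes. At an adjusted p under 0.05 (edgeR's quasi-likelihood test, Benjamini-Hochberg over all tested genes), Mrpl47, Mrpl12, Mrpl15 and Mrpl21 rose and no member fell. The background was close to this: 3.18% of all tested genes rose and 2.88% fell. At an unadjusted p under 0.05 the counts were 14 higher and 1 lower, beside 9.30% and 9.45% of all tested genes. The 3 TS libraries lay above the 3 Con libraries for 15 members and below them for 1, beside 10.7% and 11.2% of all tested genes. All 4 called genes encode large subunit proteins with a bacterial counterpart.

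Mrpl47 encodes the counterpart of a bacterial protein near the exit of the peptide tunnel. Its levels were 31.28, 28.31 and 30.25 CPM in TS, 28.39, 29.53 and 28.80 in TGFb1, 28.51, 28.18 and 28.98 in STC1, and 24.82, 26.62 and 25.02 in Con. All 9 treated libraries lay above all 3 Con libraries. The log2 fold change in TS against Con was 0.23 ± 0.057 (SE, edgeR adjusted p = 0.00677). In TGFb1 it was 0.18 ± 0.058 (edgeR adjusted p = 0.0552) and in STC1 0.16 ± 0.057 (edgeR adjusted p = 0.256). Neither passed in the main fit. Mrpl47 was called in TGFb1 with a replicate block or with a mean of at least 50 counts, but not in DESeq2 without independent filtering.

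Mrpl12 encodes the counterpart of the bacterial stalk protein and has also been described as a partner of the mitochondrial RNA polymerase. It had 82.22, 81.99 and 79.22 CPM in TS, 78.68, 74.90 and 76.82 in TGFb1, 79.75, 76.33 and 72.10 in STC1, and 75.65, 70.14 and 73.08 in Con. TS had the highest mean and did not overlap Con or TGFb1, but it overlapped STC1. TGFb1 and STC1 overlapped Con. The log2 fold change in TS against Con was 0.15 ± 0.039 (SE, edgeR adjusted p = 0.0106), beside 0.073 in TGFb1 and 0.058 in STC1.

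Mrpl15 and Mrpl21 encode structural proteins of the large subunit. Mrpl15 had 82.10, 75.08 and 82.25 CPM in TS, 79.26, 75.95 and 77.47 in TGFb1, 82.08, 77.92 and 74.16 in STC1, and 72.11, 70.95 and 72.62 in Con. Mrpl21 had 51.17, 52.60 and 51.88 CPM in TS, 48.60, 54.90 and 49.14 in TGFb1, 51.19, 52.51 and 51.71 in STC1, and 46.10, 47.07 and 46.42 in Con. For both genes all 9 treated libraries lay above all 3 Con libraries. In TS against Con the log2 fold change was 0.15 ± 0.040 for Mrpl15 (edgeR adjusted p = 0.0145) and 0.16 ± 0.046 for Mrpl21 (edgeR adjusted p = 0.0261). In STC1 Mrpl21 had the smallest adjusted p of any member, 0.149 by edgeR, at a log2 fold change of 0.16.

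The fold changes of these 4 genes stayed above 0 in every fit with 1 library left out, at 0.20 to 0.27 for Mrpl47, 0.13 to 0.18 for Mrpl12, 0.13 to 0.19 for Mrpl15 and 0.15 to 0.17 for Mrpl21, while the calls did not. Without TS replicate 1 no member was called, without Con replicate 2 only 1, without Con replicate 1 or TS replicate 3 there were 2, and without Con replicate 3 there were 7. DESeq2 called 2.

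**Figure D3:**
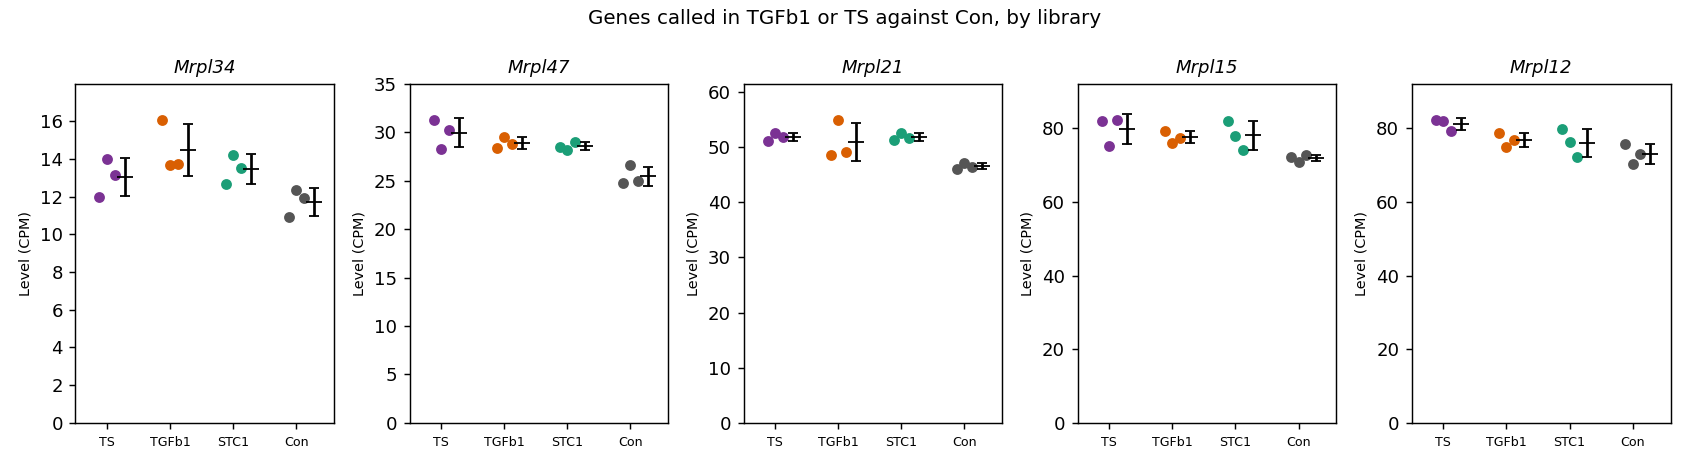
Level (CPM, axis from 0) of Mrpl34, called in TGFb1 against Con, and of Mrpl47, Mrpl21, Mrpl15 and Mrpl12, called in TS against Con, in each library (points) with the mean and SD of the 3 libraries of a group (bars). The Con libraries lie lowest for Mrpl47, Mrpl21 and Mrpl15, and the largest fold change is that of Mrpl34, with means of 14.48 CPM in TGFb1 and 11.73 in Con.

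TGFb1 against Con asked what the cytokine did alone. In the main fit only Mrpl34 rose and no member fell, where 1.90% of all tested genes rose and 2.08% fell. At an unadjusted p under 0.05 the counts were 11 higher and 2 lower, beside 8.69% and 9.02%. The groups did not overlap for 16 members that were higher and 4 that were lower, beside 10.4% and 10.9%. All 11 members higher at an unadjusted p under 0.05 were among the 46 with a bacterial counterpart and 0 among the 31 mitochondria-specific ones. The counts of that kind were 12 and 2 in TS, and 9 and 1 in STC1.

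Mrpl34 encodes a very short large subunit protein with a bacterial counterpart. It had 11.96, 13.99 and 13.13 CPM in TS, 16.06, 13.68 and 13.70 in TGFb1, 12.65, 14.20 and 13.54 in STC1, and 10.91, 12.35 and 11.93 in Con. TGFb1 and STC1 did not overlap Con, whereas TS did, and the first TGFb1 library was the highest of all 12. The log2 fold change was 0.31 ± 0.085 in TGFb1 (SE, edgeR adjusted p = 0.0234), 0.20 ± 0.085 in STC1 (edgeR adjusted p = 0.381) and 0.15 ± 0.086 in TS (edgeR adjusted p = 0.338). The departure of TS from the sum of both single treatments was -0.36 ± 0.12 on the log2 scale, which did not pass (edgeR adjusted p = 0.367). The call in TGFb1 was lost without Con replicate 1 (adjusted p = 0.196), without TGFb1 replicate 1 (adjusted p = 0.190) and in DESeq2 without independent filtering (adjusted p = 0.125).

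Promoter sequences were read for 69 of the 78 genes and for 9420 of the tested genes from RefSeq on the build GRCm38.p6, each from 250 bases before to 50 bases after the start of the gene. They were matched by gene and not by position, because the deposited counts were made on another build. Shown are the windows of 4 of the 5 genes called in TS or TGFb1, 5′ to 3′ on the strand of the gene. They lie at chr8:71464676-71464975 (plus strand) for Mrpl34, chr11:120484387-120484686 (plus) for Mrpl12, chr19:3282792-3283091 (plus) for Mrpl21 and chr3:32736706-32737005 (minus) for Mrpl47. Capitals mark matches to the letters searched for ZNF143 in Mrpl34 (ACTACA, any 2 bases, TCCC) and for NRF1 in Mrpl12 (GCGC, any 2 bases, GCGC).
Mrpl34: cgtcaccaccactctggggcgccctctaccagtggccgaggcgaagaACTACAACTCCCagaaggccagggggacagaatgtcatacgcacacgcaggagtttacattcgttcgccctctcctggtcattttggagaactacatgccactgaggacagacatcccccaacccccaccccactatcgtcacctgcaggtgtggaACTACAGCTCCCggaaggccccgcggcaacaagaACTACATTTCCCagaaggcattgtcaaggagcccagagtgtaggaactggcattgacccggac
Mrpl12: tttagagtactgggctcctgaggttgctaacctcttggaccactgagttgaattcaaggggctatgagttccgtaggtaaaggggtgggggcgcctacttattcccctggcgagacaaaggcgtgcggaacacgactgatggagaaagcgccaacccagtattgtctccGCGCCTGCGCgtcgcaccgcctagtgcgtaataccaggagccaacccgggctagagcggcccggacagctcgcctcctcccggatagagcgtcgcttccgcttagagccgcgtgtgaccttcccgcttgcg
Mrpl21: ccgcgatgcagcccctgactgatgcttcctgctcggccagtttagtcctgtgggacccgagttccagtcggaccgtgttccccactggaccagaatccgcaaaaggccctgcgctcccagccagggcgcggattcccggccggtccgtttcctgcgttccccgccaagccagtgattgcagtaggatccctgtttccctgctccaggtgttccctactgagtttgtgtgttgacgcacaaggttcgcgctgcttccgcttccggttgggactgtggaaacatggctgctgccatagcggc
Mrpl47: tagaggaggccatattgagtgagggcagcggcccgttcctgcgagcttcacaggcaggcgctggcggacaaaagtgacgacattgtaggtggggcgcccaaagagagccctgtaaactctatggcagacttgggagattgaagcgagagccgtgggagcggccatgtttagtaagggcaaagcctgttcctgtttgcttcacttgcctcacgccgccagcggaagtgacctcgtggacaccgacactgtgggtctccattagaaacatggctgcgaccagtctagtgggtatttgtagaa

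Mrpl34, the gene called in TGFb1, held 3 matches to the ZNF143 letters, whose first bases lay at -203, -47 and -13 from the start. That motif was searched after this window had been read, and 5 of the 69 member promoters held it (Mrpl24, Mrpl34, Mrpl42, Mrpl50 and Mrps22), 7.25% beside 5.17% of all promoters. Mrpl12 held 1 NRF1 match, at -81, and the windows of Mrpl21 and Mrpl47 held none of the NRF1, ETS, YY1 or ZNF143 letters.

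NRF1, the ETS factor GABP and YY1 are the transcription factors best known for nuclear genes of mitochondria. Counted on both strands, the NRF1 letters stood in 20.3% of the member promoters and 15.6% of all promoters. The ETS letters CCGGAAGT stood in 17.4% and 9.62%, and the YY1 letters AAGATGGC in 17.4% and 5.50%; followed by GG, the YY1 letters stood in 7.25% and 2.56%. At least 1 of these 3 (YY1 in the shorter form) stood in 35 member promoters, 50.7%, against 27.8% of all promoters. The SP/KLF letters GGGCGG were less frequent in the members, at 49.3% against 69.6%, and the GC content had a median of 58.0% in the members and 61.0% in all promoters. Of letters read by factors downstream of TGF-β, the AP-1 letters TGANTCA stood in 4.35% of the member promoters and 5.90% of all promoters. The palindromic SMAD letters GTCTAGAC stood in 0% and 0.265%. They are so rare in all promoters that their absence from 69 windows tells nothing about the members. Shorter SMAD letters were not searched. Promoters of related families held some of these letters as well: NRF1 stood in 28.1% and YY1 (shorter form) in 15.6% of 64 respiratory chain promoters, and ETS in 19.4% of 62 cytosolic ribosomal protein promoters. GGGCGG stood in 39.1% of the respiratory chain promoters. These are matches of letters in a window and no measure of binding.

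At both ends of the TGFb1 ranking the other named members did not pass. Next after Mrpl34 and Mrpl47 came Mrpl24, whose bacterial counterpart helps start assembly of the bacterial large subunit. Mrpl24 had 22.44, 22.31 and 23.12 CPM in TS, 22.90, 23.04 and 21.16 in TGFb1, and 20.69, 18.70 and 21.40 in Con (TGFb1 log2 fold change 0.14, edgeR adjusted p = 0.235). The third TGFb1 library of Mrpl24 lay within the Con range. At the low end, Mrpl52, which encodes a mitochondria-specific protein, had 14.43, 16.96 and 17.05 CPM in TGFb1 against 18.22, 18.93 and 17.25 in Con (-0.17, edgeR adjusted p = 0.207). Mrps6, a small subunit gene, had 26.40, 29.06 and 27.45 CPM in TGFb1 against 30.41, 30.76 and 29.99 in Con (-0.14, edgeR adjusted p = 0.207). Neither Mrpl52 nor Mrps6 overlapped Con. Mrpl54, a mitochondria-specific gene of the large subunit, had a log2 fold change of -0.12 (edgeR adjusted p = 0.329) and overlapped Con.

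STC1 against Con asked what stanniocalcin-1 did alone. No member passed in edgeR's test, where 0.0255% of all tested genes rose and 0.0255% fell, so the test called almost nothing anywhere. In DESeq2 without independent filtering the count was also 0. At an unadjusted p under 0.05, 10 members were higher and 2 lower, beside 5.40% and 5.21%. The groups did not overlap for 14 members that were higher and 3 that were lower, beside 7.67% and 7.52%. The 3 members with the largest fold changes were Mrpl34, Mrpl47 and Mrpl21, given above.

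The lowest member in STC1 was Mrps34, which encodes a mitochondria-specific small subunit protein. It had 41.82, 40.82 and 40.35 CPM in TS, 39.72, 41.34 and 38.73 in TGFb1, 39.12, 34.46 and 35.67 in STC1, and 41.64, 40.25 and 40.58 in Con. All 3 STC1 libraries lay below all Con libraries, at a log2 fold change of -0.17 ± 0.050 (SE, edgeR adjusted p = 0.165). Mrpl9 had -0.095 (edgeR adjusted p = 0.469), with 41.57, 42.33 and 43.39 CPM in STC1 against 45.56, 45.85 and 44.55 in Con. Mrpl32, whose precursor is matured by the m-AAA protease before it joins the large subunit, had -0.088 (edgeR adjusted p = 0.670), with 19.47, 19.75 and 18.92 CPM in STC1 against 20.26, 20.39 and 21.17 in Con. Neither gene overlapped Con.

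Adding 1 protein to the other was read from TS against each single treatment. Against TGFb1 no member passed (0% of all tested genes rose and 0% fell), with a smallest edgeR adjusted p of 0.493. At an unadjusted p under 0.05, 4 members were higher and 1 lower, beside 3.54% and 2.97%. Groups did not overlap for 5 higher and 1 lower, beside 5.49% and 5.45% of all tested genes. Against STC1 no member passed either (0.170% rose and 0.128% fell), with a smallest edgeR adjusted p of 0.154. At an unadjusted p under 0.05, 9 were higher and 1 lower, beside 4.51% and 4.67%. There, groups did not overlap for 10 higher and 6 lower, beside 7.35% and 7.15%. The departure from additivity (TS less TGFb1 less STC1 plus Con) had a median of -0.027 over the members and 0.0020 over all tested genes. By edgeR's test 0% of all tested genes passed above 0 and 0% below. At an unadjusted p under 0.05 it was above 0 for 3 members and below 0 for 5, beside 4.38% and 3.91%. DESeq2 without independent filtering also called 0 members in each of these 3 comparisons.

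The median log2 fold change of the members was 0.0048 in TS against TGFb1 and 0.023 in TS against STC1. The widest gaps in TS against TGFb1, chosen after their values were seen, were in Mrpl52, Mrpl36 and Mrps22. Mrpl52 had 19.60, 20.04 and 18.19 CPM in TS against the 14.43 to 17.05 CPM in TGFb1 given above (log2 fold change 0.26, edgeR adjusted p = 0.493). Mrpl36, a gene of a short large subunit protein with a bacterial counterpart, had 21.19, 19.87 and 21.04 CPM in TS against 19.04, 15.96 and 18.81 in TGFb1 (0.21, edgeR adjusted p = 0.626). Mrps22, which encodes a mitochondria-specific small subunit protein, had 27.25, 28.99 and 27.22 CPM in TS against 30.84, 33.56 and 29.68 in TGFb1 (-0.17, edgeR adjusted p = 0.626). None of the 3 overlapped between the groups.

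The 3 Mrps18 genes encode related proteins with different places in the ribosome. Mrps18a, of the large subunit, averaged 29.03 ± 0.820 CPM in TS, 29.23 ± 1.80 in TGFb1, 29.04 ± 0.835 in STC1 and 29.51 ± 1.14 in Con. Mrps18b, of the small subunit, averaged 60.44 ± 0.977 CPM in TS, 59.31 ± 1.81 in TGFb1, 56.52 ± 0.124 in STC1 and 57.01 ± 2.09 in Con. Mrps18c, also of the small subunit, averaged 29.85 ± 1.92 CPM in TS, 29.88 ± 0.771 in TGFb1, 30.51 ± 0.695 in STC1 and 28.54 ± 1.07 in Con (SD, n = 3 each). None of the 3 passed against Con. Mrps36 averaged 19.25 ± 0.567 CPM in TS, 19.01 ± 0.644 in TGFb1, 19.23 ± 1.31 in STC1 and 18.35 ± 0.443 in Con and did not pass, and neither did Mrps12, with log2 fold changes against Con of 0.13 in TS, 0.14 in TGFb1 and 0.10 in STC1.

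The rest of the machinery around the mitoribosome gave few calls. Of 17 translation factors tested, 1 rose in TS against Con, where 3.18% of all tested genes rose and 2.88% fell: Mtres1, which encodes a factor that rescues stalled mitoribosomes, had 29.52, 29.05 and 29.89 CPM in TS against 26.44, 23.88 and 25.78 in Con (log2 fold change 0.22 ± 0.061, edgeR adjusted p = 0.0224). Of 8 regulators of nuclear genes for mitochondria, 1 fell in TS: Yy1, with 102.8, 102.8 and 106.0 CPM in TS against 120.6, 103.3 and 116.8 in Con (-0.13 ± 0.038, edgeR adjusted p = 0.0286). The ranges of Yy1 overlapped, since its second Con library lay among those of TS. No gene passed in TS against Con among the 5 mitoribosomal proteins with other names (Dap3, Gadd45gip1, Ptcd3, Chchd1 and Aurkaip1) or 29 assembly and rRNA processing factors. The same held for 20 genes listed as mitochondrial aminoacyl-tRNA synthetases and 9 listed under mitochondrial transcription. These list names are loose. The synthetases include the amidotransferase genes Qrsl1, Gatb and Gatc, and the transcription genes include Twnk and Ssbp1 of mitochondrial DNA replication. The translation factors include Letm1, Oxa1l, Lrpprc and Slirp, which are not translation factors in the strict sense.

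None of the genes in these lists passed in TGFb1 or STC1 against Con. The nearest in TGFb1 were Tfb2m, a factor of mitochondrial transcription, at 0.17 ± 0.054 (34.93, 34.97 and 35.44 CPM in TGFb1 against 29.61, 32.39 and 31.69 in Con, edgeR adjusted p = 0.0581), and C1qbp, a matrix protein linked to mitoribosome biogenesis, at 0.096 ± 0.031 (edgeR adjusted p = 0.0581). In TS against Con the median log2 fold change was 0.025 for the assembly factors, 0.031 for the translation factors, 0.0037 for the synthetases, -0.0093 for the transcription genes, 0.043 for the regulators and 0.040 for the mitoribosomal proteins with other names, beside 0.052 for the 78 members. In TGFb1 against Con it was 0.053 for the translation factors, beside 0.050 for the members.

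Both gene families most like the members by function had the same order of group means. The libraries of TGFb1 and STC1 overlapped in both families, and for the respiratory chain TS overlapped TGFb1 and STC1. The 82 cytosolic ribosomal protein genes summed to 86770 ± 1330 CPM in TS, 84370 ± 757 in TGFb1, 84070 ± 579 in STC1 and 81050 ± 1530 in Con (SD, n = 3 each), which put TS 7.05%, TGFb1 4.10% and STC1 3.73% above Con. The 76 nuclear-encoded respiratory chain genes summed to 10040 ± 149 CPM in TS, 9863 ± 95.8 in TGFb1, 9840 ± 49.1 in STC1 and 9623 ± 95.9 in Con, which put TS 4.30%, TGFb1 2.50% and STC1 2.26% above Con. In TS against Con, 46 of the 82 cytosolic and 11 of the 76 respiratory chain genes rose, beside the 4 of 78 members and 3.18% of all tested genes. Cytosolic ribosomal protein genes are more abundant and their fold changes have smaller errors (median SE 0.029), so the counts do not compare the sizes of the changes. Per 100 CPM of cytosolic ribosomal protein message there were 3.78 ± 0.055 CPM of the members in TS, 3.86 ± 0.026 in TGFb1, 3.83 ± 0.015 in STC1 and 3.89 ± 0.051 in Con, and the ranges of TS and Con met at 3.74 to 3.84 and 3.83 to 3.93. Whether the families differ was not tested.

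**Figure D4:**
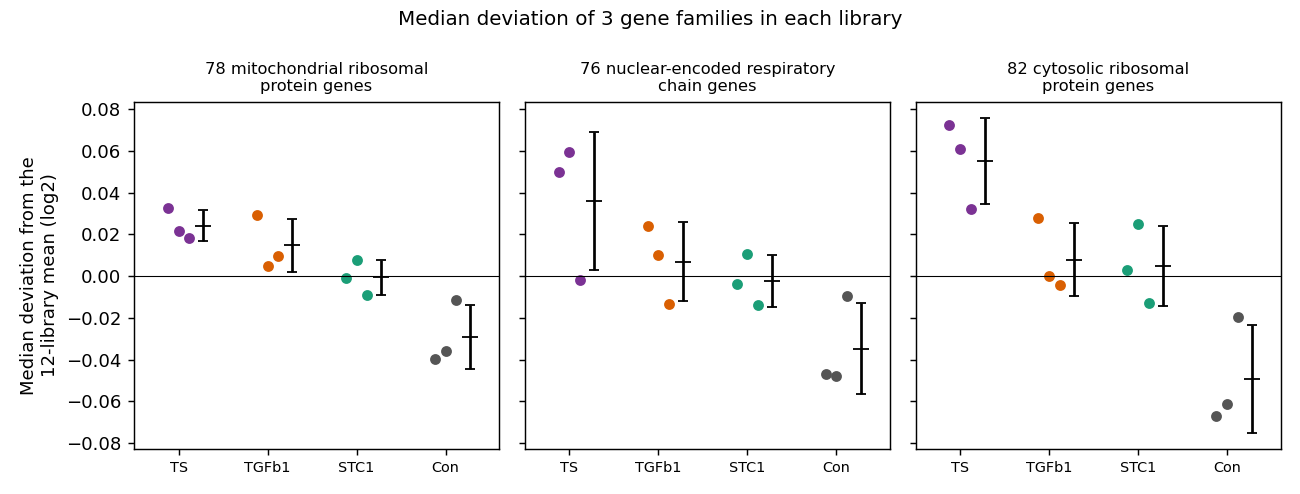
Median deviation (log2) of the genes of 3 families from their own mean over the 12 libraries, in each library (points), with the mean and SD of the 3 libraries of a group (bars). In each family 2 Con libraries lie lowest. Con replicate 3 lies near the treated libraries, at -0.012 for the 78 members, and among them for the respiratory chain genes.

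A trend with transcript length ran through the whole data set, and the members have short transcripts: the median length was 1253 nucleotides for the members and 3096 for the tested genes. Across all 11482 tested genes with a length, the rank correlation of the log2 fold change with length was -0.32 in TS, -0.19 in TGFb1 and -0.18 in STC1 against Con. Genes are not independent, and these 3 comparisons share the Con libraries. In TS against Con, the median fold change was 0.079 in the shortest of 20 classes (median length 792), 0.055 in the second (1159), 0.036 in the third (1430) and -0.054 in the longest (9699). The members' median of 0.052 lay between those of the classes at 1159 and 1430 nucleotides, which bracket the members' median length. Within the 78 members the same rank correlation was -0.098 in TS, 0.13 in TGFb1 and 0.014 in STC1.

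**Figure D5:**
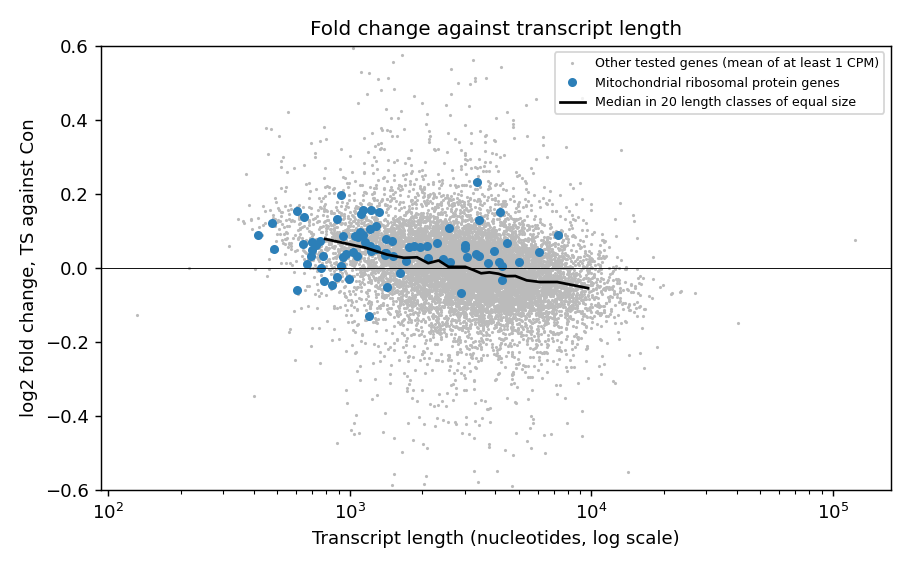
The log2 fold change in TS against Con against transcript length (nucleotides, log axis) for the 78 members and other tested genes of at least 1 CPM, with the median in 20 classes of equal size (line). The line falls with length and the members scatter about its upper left part; 21 other genes lie beyond the axis limits of 0.6.

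With a smooth trend in length and GC content removed across 11091 genes, the median of the members was 0.020 in TS, 0.030 in TGFb1 and 0.015 in STC1 against Con, with 47, 54 and 45 of the 78 genes above 0. Over all 11091 genes the median after removal was 0.0016 in TS, 0.0032 in TGFb1 and 0.0011 in STC1 against Con. The median then lay below 0 in TS against TGFb1, at -0.017 (0.0048 before), and in TS against STC1, at -0.0046 (0.023 before). For 81 cytosolic ribosomal protein genes the median in TS against Con was 0.037 after removal and 0.11 before. What set the trend in length was not tested.

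The counts of a few members were not whole numbers. Fractional counts stood in 11 or 12 libraries for 7 members (Mrpl18, Mrpl19, Mrpl24, Mrpl39, Mrpl40, Mrpl43 and Mrps25) and in 1 library for 3 more, so their levels are uncertain where the counting could split reads between genes. By a GENCODE annotation of the earlier build, 15 members overlap an exon of a protein-coding gene on the opposite strand and 2 on the same strand. The 2 are Mrpl53, with Gm42688, and Mrps6, with Gm49711 and Slc5a3, whose reads strand could not separate. Slc5a3 had a log2 fold change against Con of -0.13 in TS (edgeR adjusted p = 0.074) and -0.049 in TGFb1 (edgeR adjusted p = 0.611). Among called genes, Mrpl47 overlaps Ndufb5 and Actl6a, and Mrpl21 overlaps Ighmbp2. Mrpl12 overlaps the long noncoding RNA gene Gm16755, also on the opposite strand. Whether the counting used strand is not given in the sources used here, so reads of these pairs cannot be told apart. The partners of Mrpl47 and Mrpl21 did not pass in TS against Con. The log2 fold change was 0.063 for Ndufb5 (edgeR adjusted p = 0.405), 0.079 for Actl6a (edgeR adjusted p = 0.297) and 0.093 for Ighmbp2 (edgeR adjusted p = 0.501). Mrpl18, which did not pass in TS (0.11, edgeR adjusted p = 0.0662) or TGFb1 (0.096, edgeR adjusted p = 0.126), overlaps Tcp1, a chaperonin gene with a mean of 748.3 CPM that rose in TS (0.086, edgeR adjusted p = 0.0262) and in TGFb1 (0.10, edgeR adjusted p = 0.00801) against Con.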

How the data were processed

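RNA sequencing of 12 NIH-3T3 samples was analysed. Per the labels' protocols, RNA was isolated with TRIzol and poly-A libraries were built with an MGIEasy kit. The authors deposited estimated counts for 16300 genes, unscaled; between 88.5% and 89.1% of a library's values were whole within 1e-06. The build GRCm39 is named per the submitters' processing notes; aligner, counting program and use of strand are not given in the sources used here. Symbols were matched through a RefSeq table for 16177 genes, while 123 had none and took up to 0.123% of the counts in a library.

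Counts were rounded, filtered with filterByExpr (11763 genes left), scaled by TMM and fitted over all 12 libraries with 1 mean per group (8 residual degrees of freedom) by edgeR 4.0.16 in R 4.3.3, with robust quasi-likelihood tests. All tests are two-sided with Benjamini-Hochberg adjustment across the genes tested, and an adjusted p under 0.05 was a call. CPM use TMM-scaled library sizes. Libraries of a group differed by more than counting noise (chi-square per degree of freedom 1.46 to 2.46). Scripts were tested on simulated data. Alternatives were other scalings and filters, DESeq2 1.42.0, a replicate block, fits on the compared groups, each library left out, and a length and GC trend removed with mgcv 1.9.3; DESeq2 without independent filtering was added after seeing the data. DESeq2's default gave an adjusted p to 13 members in TS against Con, 35 in TGFb1 against Con and 0 in STC1 against Con.

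The members, gene lists and subunit classes were chosen with earlier results of these data known, so no test was made over a list. Members named are those called, the 3 at each end of TGFb1 and of STC1 against Con, the 4 most and 4 least abundant, and Mrpl34, Mrpl12, Mrps12, Mrps18a, Mrps18b, Mrps18c and Mrps36 for their roles; other exceptions are marked. In the other lists, called genes and up to 3 of smallest p could be named. Lengths came from the longest RefSeq-matched coding transcript of GENCODE on the earlier build. Messages of mitochondrial DNA were not analysed here.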

Additional observations from a re-analysis of the deposited data

How the results depend on the processing

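With a length and GC trend removed, the median log2 fold change of the 78 genes changed sign in TS against STC1 (-0.0046) and in TS against TGFb1 (-0.017) and moved in TS against Con (0.020), TGFb1 against Con (0.030), STC1 against Con (0.015) and the departure from additivity (-0.041). Without TMM scaling it was 0.040 in TS against Con, where the median of all tested genes was -0.012.

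In TGFb1 against Con the called members numbered 2 with a mean of at least 50 counts, Mrpl47 then passing beside Mrpl34 (adjusted p = 0.0488), and 0 in DESeq2 with or without independent filtering. In TS against Con they numbered 2 in DESeq2 with independent filtering (Mrpl12 and Mrpl15) and 2 without it (Mrpl12 and Mrpl47). Without it Mrpl15 and Mrpl21 did not pass (DESeq2 adjusted p = 0.065 and 0.117). With it, 13 members in TS against Con and 35 in TGFb1 against Con had an adjusted p, and the others could not be called. What else moved the calls between settings was not tested.

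Leaving out each library in turn gave 0 to 7 called members in TS against Con and 0 to 2 in TGFb1 against Con, and 0 in each other comparison. The medians ran between 0.048 and 0.058 in TS against Con, 0.037 and 0.057 in TGFb1 against Con, 0.023 and 0.039 in STC1 against Con, -0.0037 and 0.012 in TS against TGFb1, 0.0099 and 0.032 in TS against STC1, and -0.039 and -0.022 for the departure from additivity.

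Replicate numbers were not taken to pair the samples in the main fit, since not every same-numbered pair correlated above 0.1. That rule is strict and would miss a weak pairing. Same-numbered pairs lay at -0.023 to 0.25 (15 of 18 above 0) and others at -0.21 to 0.15 (12 of 36 above 0). As a hint from the data, 10 of 12 libraries correlated best, on average, with those of their own number. With the replicate block, 2 members were called in TGFb1 against Con (Mrpl47 added, adjusted p = 0.0468) and 6 in TS against Con, and calls over all genes numbered 656 in place of 469 and 856 in place of 713. The refits followed 12 named members against Con (22 fold changes), and none of these changed sign. With 3 libraries a group and a member SE near 0.053, changes of the size of the group medians were below what a single gene could show.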

Other observations

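The members varied little between libraries. The coefficient of variation over all 12 had a median of 4.515% and exceeded that of counting alone for 57 of the 78 genes, by more than 1.5 times for 15. It was widest for Mrpl34 at 10.2%, where counting alone gives 6.59%, and for Mrpl52 at 8.33%, where counting alone gives 5.65%. Mrpl36 had 8.21% and Mrpl27 7.79%. These 4 genes were chosen after their values were seen.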
